A study of Mus musculus with 46 samples.

Results

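The genes described here are 4 secreted peptide hormones that cells release under mitochondrial or nutrient stress (Fgf21, Gdf15, Adm2 and Stc2), a hepatic activin subunit (Inhbe), and the co-receptor and a receptor through which Fgf21 acts (Klb and Fgfr1). They were chosen by gene symbol from the deposited counts, 7 of the 55487 genes listed, and were followed through every islet and liver group. The series asks how mitochondria signal back to the rest of the cell in metabolic tissues of the mouse, and holds 46 RNA-seq libraries in 11 groups. The targeted genes were Tfam, whose product packages and transcribes mitochondrial DNA, Clec16a, a regulator of mitophagy, and the mitofusins Mfn1 and Mfn2, which fuse mitochondrial outer membranes.

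The Tfam islets were 5 control and 4 KO libraries from female mice and 3 control and 2 KO libraries from male mice. The Clec16a islets were 4 control and 4 KO libraries on a diet abbreviated RFD, and 6 control and 5 KO libraries on a diet abbreviated HFD. Neither abbreviation is written out and the labels give no sex. All 19 libraries held 0 counts of the Y-linked gene Ddx3y, as the labelled Tfam females did, and 302 to 534 CPM of Xist. The livers were 6 control, 4 Mfn DKO (both mitofusins) and 3 Tfam KO libraries, with AAV, the usual abbreviation of adeno-associated virus, in their descriptions and no sex given. Islets had spent a night in culture before RNA was taken, whereas livers had been flash frozen. The labels name no strain, age, promoter or Cre line, and no agent given to the control livers, so what the control and KO livers share cannot be stated. Libraries of a group are labelled as biological replicates; p-values therefore measure the spread between these libraries.

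FGF21 is an endocrine fibroblast growth factor made chiefly by the liver that signals through a complex of the receptor FGFR1 with the co-receptor β-Klotho, the product of Klb. GDF15 is a distant member of the TGF-β superfamily that acts on the brainstem through GFRAL and RET to lower food intake, and both hormones are known as circulating signs of mitochondrial disease. In stressed cells phosphorylation of the translation factor eIF2 raises the transcription factor ATF4, which pairs with C/EBP proteins at composite elements in the promoters of its targets; Fgf21, Gdf15, Adm2, Stc2 and Inhbe are all described as genes induced by stress of this kind.

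The promoters are shown because all 4 hormones were higher in KO islets of both experiments; in livers Stc2 departed from the other 3. RefSeq (GRCm38.p6) gave a start site for 6 of the 7 genes, all but Fgfr1. The 250 bases before each start were searched on both strands for the composite element TGATGNAA, in capitals below where present. It was found in Fgf21, at base -139 counted from the start, and in Inhbe, at base -181, in both on the reverse strand as TTGCATCA. It was found in at least 1 promoter of 3.91% of the 27025 genes in the RefSeq table, and in 7 of the 19 genes listed there from a set of 23 ATF4 targets. The printed windows are Fgf21, chr7:45615491-45615740, minus strand; Gdf15, chr8:70632457-70632706, minus strand; Adm2, chr15:89322470-89322719, plus strand; and Stc2, chr11:31370062-31370311, minus strand. For Stc2 only the 237 bases that precede its first GENCODE exon are shown. The Inhbe window, chr10:127351849-127352098 on the minus strand, lies within GENCODE exons, so 30 bases around the element are shown. Each sequence runs 5′ to 3′ on the strand of its gene.
Fgf21: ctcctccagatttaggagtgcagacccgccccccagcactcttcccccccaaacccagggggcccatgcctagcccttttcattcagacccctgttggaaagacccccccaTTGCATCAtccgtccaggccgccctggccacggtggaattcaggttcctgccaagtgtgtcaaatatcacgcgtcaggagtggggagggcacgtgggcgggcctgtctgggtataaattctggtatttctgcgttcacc
Inhbe: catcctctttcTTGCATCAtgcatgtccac
Gdf15: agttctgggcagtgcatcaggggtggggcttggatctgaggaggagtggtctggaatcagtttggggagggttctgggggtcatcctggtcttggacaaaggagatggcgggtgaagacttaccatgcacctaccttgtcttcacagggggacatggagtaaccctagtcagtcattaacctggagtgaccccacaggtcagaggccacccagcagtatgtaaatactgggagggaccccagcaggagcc
Adm2: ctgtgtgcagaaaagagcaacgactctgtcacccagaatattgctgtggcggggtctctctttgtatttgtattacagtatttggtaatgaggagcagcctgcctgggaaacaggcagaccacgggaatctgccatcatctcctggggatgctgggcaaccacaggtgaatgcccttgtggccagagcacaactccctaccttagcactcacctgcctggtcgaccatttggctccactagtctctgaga
Stc2: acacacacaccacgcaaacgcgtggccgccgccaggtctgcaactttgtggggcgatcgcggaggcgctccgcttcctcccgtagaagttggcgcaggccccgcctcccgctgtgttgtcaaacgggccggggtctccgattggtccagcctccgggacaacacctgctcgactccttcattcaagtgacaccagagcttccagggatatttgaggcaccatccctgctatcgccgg

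No window of the 6 genes held the cyclic AMP response element TGACGTCA, the unfolded protein response element TGACGTGG, the endoplasmic reticulum stress element (ERSE) or the direct repeat bound by PPAR and RXR, each searched on both strands, which occurred in 1.55%, 0.563%, 0.113% and 0.0335% of promoters. A match describes letters and not a bound site, and a missing match speaks only of these 250 bases.

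In the genome (GENCODE M21 on GRCm38), Fgf21 (ENSMUSG00000030827) lies at chr7:45613886-45615490 on the minus strand, Gdf15 (ENSMUSG00000038508) at chr8:70629393-70632456 on the minus strand, Adm2 (ENSMUSG00000054136) at chr15:89322720-89324731 on the plus strand and Stc2 (ENSMUSG00000020303) at chr11:31357307-31370074 on the minus strand. Inhbe (ENSMUSG00000047492) lies at chr10:127348857-127354411 on the minus strand, Klb (ENSMUSG00000029195) at chr5:65348314-65384007 on the plus strand and Fgfr1 (ENSMUSG00000031565) at chr8:25513654-25575718 on the plus strand. Fgfr1 shares 164 exonic bases with the antisense gene Gm16159; the strand setting of the counting is not given in the sources used here, so reads of these bases cannot be assigned to one of them. Exons of the other 6 genes overlapped no other gene.

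The 14 Tfam islet libraries held 55223041 to 83342809 counts each, the 19 Clec16a islet libraries 16235173 to 55810879, and the 13 liver libraries 41961114 to 56894510. Tfam fell by 1.21 on the log2 scale in Tfam KO islets (adjusted p = 3.76e-10) and by 2.004 in Tfam KO livers (adjusted p = 1.39e-06), and Mfn1 and Mfn2 fell by 2.003 and 2.04 in Mfn DKO livers (adjusted p = 2.64e-05 and 2.97e-05). Clec16a did not differ detectably between the libraries labelled Clec16a KO and their controls, at log2 fold changes of 0.13 on RFD (adjusted p = 0.612) and 0.08 on HFD (adjusted p = 0.740), so in that experiment the genotype rests on the labels. The tissue labels matched their markers: 8 beta cell markers summed to between 105367 and 349010 CPM in islets and at most 498 CPM in livers, where Ins1 and Iapp were at 0, and 8 hepatocyte markers summed to at least 22737 CPM in livers and at most 6527 CPM in islets.

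A pair of libraries stood apart from their groups. In HFD replicate 4 labelled Clec16a KO, 0 of 23 ATF4 target genes lay above the highest HFD control, against 17 to 22 in the other 4 libraries of that group, and its beta cell marker sum of 250337 CPM was above the 138661 to 223216 CPM of those 4. In Tfam KO liver replicate 2 the hepatocyte marker sum was 22737 CPM, against 58620 and 95980 CPM in the other 2 libraries and 95246 to 140678 CPM in control livers. Fold changes of the 7 genes that rest on either library are given with and without it, and so are the list counts and named genes of its own comparison whose call changes or whose value moves by more than 1.5 times without it. The other comparisons of the same experiment share its estimate of spread: 11.95% of all genes were called on RFD without HFD replicate 4 and 19.51% in Mfn DKO livers without Tfam KO replicate 2. In bulk tissue, fewer cells of a type and less RNA per cell cannot be told apart.

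Genotypes were compared to ask which of the hormones and receptors follow mitochondrial damage in each tissue. In all 5 comparisons of KO with control the genes called, at an adjusted p of at most 0.05 over all genes tested with edgeR's quasi-likelihood test, were higher in KO, and among the hormones only Stc2 in Mfn DKO livers was not called. In Tfam KO islets 5 of the 6 genes tested were called higher, against 11.6% of all 19752 genes tested. The same 5 were called in females, against 6.67%, and in males, against 5.24%, where calls in either direction made up 10.8% and 8.93%. Fgf21, Gdf15, Adm2, Stc2 and Fgfr1 were also the 5 of 6 called higher under the Clec16a KO label, on RFD against 3.99% of 17254 genes and on HFD against 5.62%. In livers all 7 genes were tested: 3 were called higher in Mfn DKO, against 5.23% of 17024 genes, and 4 in Tfam KO, against 18.1%. Calls in either direction made up 20.9%, 7.52%, 9.57%, 9.87% and 29.3% of the genes tested in Tfam islets, Clec16a islets on RFD and HFD, Mfn DKO livers and Tfam KO livers. Fgf21 in the Tfam islets and Adm2 in the livers passed the filter on low counts only through KO libraries, since no control library reached its threshold; without that filter the counts of genes called were the same.

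**Figure D1:**
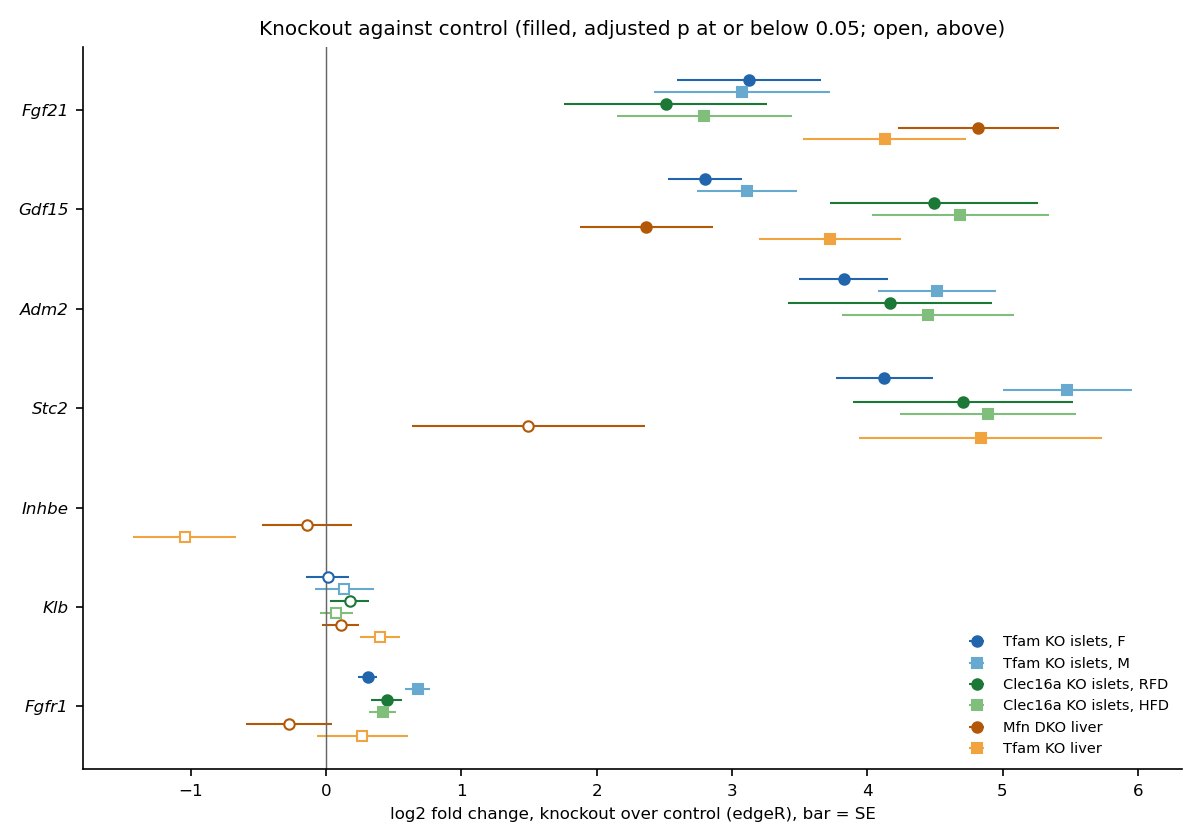
Log2 fold changes of KO over control (points, with 1 SE as bars; filled where called, open where not) for the 7 genes in 6 comparisons, the Tfam islets split by sex; Adm2 in livers is left out because all control livers held 0 counts. The hormones lie between 1.49 and 5.48, Klb between 0.01 and 0.40, and Inhbe, tested in livers only, at -0.14 and -1.04.

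Levels were first compared between genes per transcript length, with the authors' TPM. In control islets the receptors stood above the hormones: in Tfam control females Klb averaged 7.29 TPM and Fgfr1 5.24 TPM, and Gdf15, the highest of the hormones, 0.904 TPM. In KO islets Adm2 became the most abundant of the 7 transcripts in every group mean, at 11.7 TPM in Tfam KO females, 15.3 TPM in Tfam KO males, 39.4 TPM in the Clec16a KO group on RFD and 54.4 TPM on HFD. The liver ordered them differently. Control livers held Inhbe at 27.9 TPM, Klb at 14.3 TPM, Gdf15 at 5.48 TPM and Fgf21 at 5.30 TPM, with Adm2 at 0. Fgf21 led in Mfn DKO livers, at 183 TPM. In Tfam KO livers the means of Fgf21 and Gdf15 were 131 and 120 TPM, and replicate 2 ordered them the other way, with 57.4 TPM of Fgf21 and 215 TPM of Gdf15. Without it the means were 168 and 72.9 TPM.

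**Figure D2:**
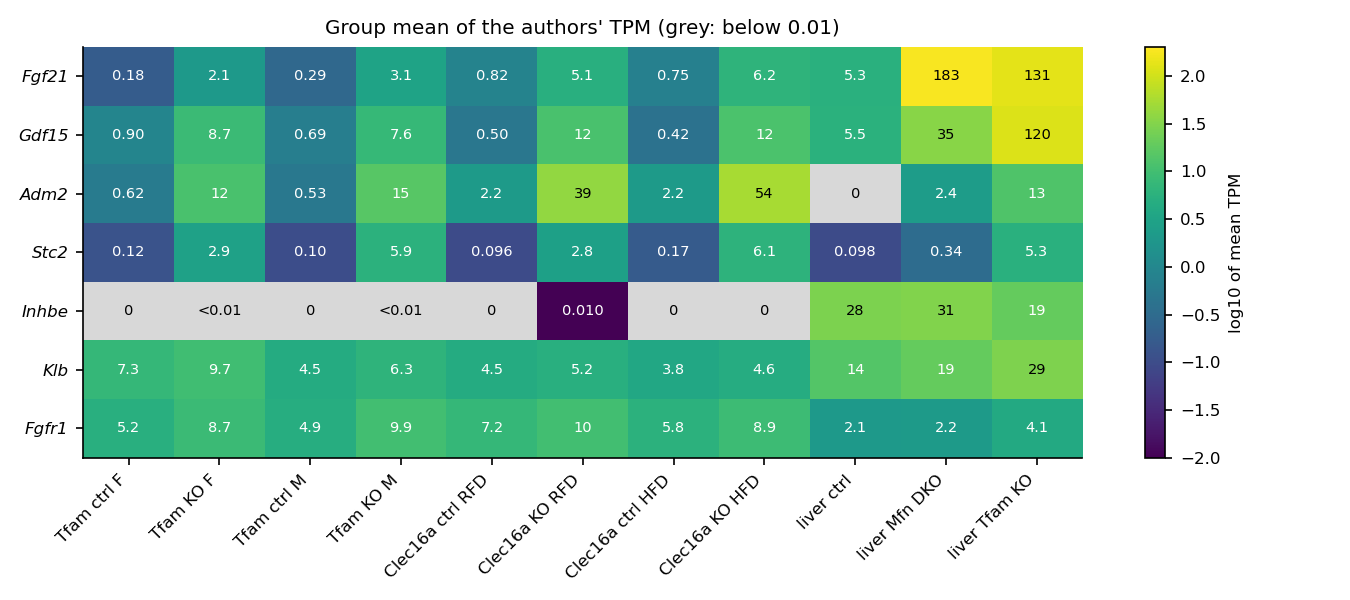
Mean authors' TPM of the 7 genes (rows) in each of the 11 groups (columns), printed in each cell and coloured by its log10 (grey, under 0.01 TPM). Adm2 is the highest of the 7 in every KO islet group and Fgf21 the highest in both KO livers (in Tfam KO, with replicate 2 included, 131 against 120 TPM of Gdf15), while Klb or Fgfr1 leads in the control islets and Inhbe in the control livers.

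Fgf21, the hormone of the liver's fasting and stress responses, was close to the detection limit in control islets. In CPM, the count scaled to library size, the 5 Tfam control females held 0.145, 0.107, 0.0378, 0.124 and 0, and the 3 control males 0.155, 0.107 and 0.112. The 4 Tfam KO females held 0.484, 0.635, 1.13 and 0.575 CPM and the 2 KO males 1.02 and 1.11 CPM. Every KO library lay above every control, in both sexes. Fgf21 rose by 3.10 on the log2 scale (SE 0.40, adjusted p = 4.52e-05) over both sexes, by 3.12 in females and 3.07 in males (adjusted p = 0.00132 and 0.00802). The means behind it were 0.826 ± 0.292 CPM (SD, n = 6) and 0.0985 ± 0.0530 CPM (SD, n = 8), that is 360 counts in all KO libraries together and 50 in all controls, so the size of the change rests on few reads.

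On RFD, Fgf21 was 0.230, 0.535, 0.220 and 0.533 CPM in the 4 Clec16a controls and 2.97, 2.16, 2.45 and 1.53 CPM in the 4 KO libraries. The groups did not overlap, and the log2 fold change was 2.51 (SE 0.75, adjusted p = 0.0459). This call was close to the threshold: it held in 5 of the 19 fits that left out 1 library of the experiment, with adjusted p up to 0.130. On HFD the 6 controls ran from 0.0475 through a median of 0.248 to 0.818 CPM, and the KO libraries held 3.59, 3.49, 2.21, 0.131 and 3.04 CPM. Replicate 4 lay within the controls and the other 4 KO libraries above all of them. With it the log2 fold change was 2.79 (SE 0.65, adjusted p = 0.0102) and without it 3.12 (SE 0.52, adjusted p = 2.30e-04).

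In livers Fgf21 showed its largest levels. Control livers ran from 0.502 through a median of 1.66 to 5.14 CPM, Mfn DKO livers held 88.9, 46.8, 45.9 and 83.1 CPM, and Tfam KO livers 54.3, 13.1 and 55.5 CPM. No KO liver overlapped the controls, and the lowest was replicate 2 of Tfam KO, the library with few hepatocyte transcripts. The rise in Mfn DKO was 4.82 on the log2 scale (SE 0.60, adjusted p = 6.40e-04), with means of 66.2 ± 23.0 CPM (SD, n = 4) and 2.32 ± 1.83 CPM in controls (SD, n = 6). In Tfam KO it was 4.13 (SE 0.60, adjusted p = 9.96e-04), and 4.55 without replicate 2 (adjusted p = 7.12e-04). Ordered by the authors' TPM, the groups ran from 0.181 in Tfam control females over 0.825 in Clec16a controls on RFD, 5.13 in the Clec16a KO group on RFD and 5.30 in control livers to 131 (168 without replicate 2) in Tfam KO and 183 in Mfn DKO livers. The libraries of the control livers and of both Clec16a KO groups overlapped in this order, as did the 2 KO liver groups; these TPM were set side by side across experiments without a test.

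Gdf15, the hormone that acts through GFRAL in the hindbrain, varied little among the Tfam KO islets. Tfam control females held 0.598, 0.570, 0.965, 1.43 and 0.579 CPM and control males 0.464, 0.442 and 0.854 CPM. Tfam KO females held 6.78, 5.03, 5.50 and 5.54 CPM and KO males 4.39 and 5.75 CPM. The lowest KO library was above the highest control. Gdf15 rose by 2.91 on the log2 scale (SE 0.22, adjusted p = 1.01e-07), a mean of 5.50 ± 0.794 CPM (SD, n = 6) against 0.738 ± 0.334 CPM (SD, n = 8); it was 2.80 in females and 3.11 in males (adjusted p = 7.30e-06 and 7.18e-05).

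In the Clec16a islets the change of Gdf15 was larger. On RFD the controls held 0.269, 0.401, 0.397 and 0.686 CPM and the KO libraries 12.2, 8.33, 11.99 and 8.31 CPM, with no overlap. The ratio of the means was 23.3, with a log2 fold change of 4.49 (SE 0.77, adjusted p = 0.00348). On HFD the controls ran from 0.134 through 0.255 to 0.940 CPM, and the KO libraries held 10.04, 14.1, 9.88, 0.210 and 13.1 CPM. Again replicate 4 alone lay among the controls; the log2 fold change was 4.69 (SE 0.66, adjusted p = 3.53e-04) with it and 5.01 (SE 0.38, adjusted p = 2.37e-08) without it. The Tfam effect minus the Clec16a effect was -1.65 and not called (SE 0.65, adjusted p = 0.112); without HFD replicate 4 it was -1.82 and called (adjusted p = 0.0132).

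The highest values of Gdf15 were those of Tfam KO livers, and control livers averaged more than control islets, with overlapping libraries. Control livers ran from 0.951 through 4.11 to 8.98 CPM, Mfn DKO livers held 25.0, 23.2, 18.0 and 31.1 CPM and Tfam KO livers 59.4, 95.8 and 31.3 CPM. The 3 liver groups did not overlap at all, Tfam KO lying above Mfn DKO and Mfn DKO above the controls. Against controls the log2 fold change was 2.37 in Mfn DKO (SE 0.49, adjusted p = 0.0117) and 3.72 in Tfam KO (SE 0.52, adjusted p = 8.73e-04; 3.27 without replicate 2, adjusted p = 0.00385). The direct comparison of Tfam KO with Mfn DKO, at 1.35, was not called (SE 0.57, adjusted p = 0.210). By the authors' TPM, all islet control groups lay between 0.420 and 0.904, control livers at 5.48, the KO islet groups between 7.55 and 12.2, and the KO livers at 34.5 in Mfn DKO and 120 in Tfam KO (72.9 without replicate 2); the libraries of control livers overlapped those of Tfam KO islets, as did neighbouring KO islet groups.

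Adm2, also named intermedin, is a calcitonin family peptide that signals through the calcitonin receptor-like receptor with RAMP proteins. Tfam control females held 0.525, 0.320, 0.303, 0.456 and 0.316 CPM and control males 0.580, 0.0804 and 0.280 CPM. Tfam KO females held 5.38, 4.83, 5.29 and 6.23 CPM and KO males 7.79 and 6.67 CPM. All KO libraries lay above all controls, and each KO male lay above every KO female. Adm2 rose by 4.08 on the log2 scale (SE 0.27, adjusted p = 2.34e-08), 3.83 in females (adjusted p = 1.70e-06) and 4.51 in males (adjusted p = 1.06e-05).

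On RFD the Clec16a controls held 0.346, 0.892, 1.76 and 2.26 CPM of Adm2 and the KO libraries 21.1, 22.9, 27.5 and 23.9 CPM. The controls spread widely and the KO libraries closely, at 23.9 ± 2.71 CPM (SD, n = 4), without overlap; the log2 fold change was 4.17 (SE 0.75, adjusted p = 0.00386). On HFD the controls ran from 0.642 through 1.20 to 2.85 CPM, and the KO libraries held 36.4, 39.9, 28.8, 0.602 and 42.8 CPM. Replicate 4 lay under the lowest control. Its log2 fold change was 4.45 with that library (SE 0.63, adjusted p = 4.16e-04) and 4.78 without it (SE 0.35, adjusted p = 1.16e-08).

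In control livers Adm2 had 0 counts in all 6 libraries, a level of no more than 0.0792 CPM where a count of 0 is read as up to 3 counts in the shallowest library. Mfn DKO livers held 1.55, 0.966, 0.686 and 1.52 CPM and Tfam KO livers 6.67, 7.19 and 0.313 CPM. It was thus read in each of the 7 KO livers and in no control. Against that level, Mfn DKO was at least 14.9-fold higher and Tfam KO at least 59.6-fold higher in the mean, or at least 44.1-fold without replicate 2 (adjusted p = 0.00791 and 0.00157, and 0.00510 for Tfam KO without replicate 2). With all libraries, the difference between the Tfam effects in islets and in liver was called for Adm2 alone, at -7.07 (SE 2.02, adjusted p = 0.0103; islets minus liver, called in either direction for 21.8% of 21794 genes). That size is fitted against livers at 0 and is no bound. Without Tfam KO liver replicate 2 it was -6.62 and no longer called (adjusted p = 0.0532), and the difference for Stc2 was then 3.30 and called (adjusted p = 0.0158). By TPM the control livers came first, followed by islet controls from 0.532 to 2.18, Mfn DKO livers at 2.39, Tfam KO islets and livers from 11.7 to 15.3, and the Clec16a KO groups at 39.4 and 54.4. The Tfam KO liver libraries alone ran from 0.649 to 23.1 TPM.

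Stc2, stanniocalcin 2, is a secreted glycoprotein that inhibits the pappalysin proteases and so restrains the release of IGF from its binding proteins. Tfam control females held 0.326, 0.231, 0.435, 0.394 and 0.158 CPM and control males 0.374, 0.188 and 0.182 CPM. Tfam KO females held 8.94, 2.73, 4.91 and 4.65 CPM and KO males 12.9 and 9.48 CPM. The KO libraries were all above the controls, and both KO males above the KO females. The log2 fold change of 4.64 (SE 0.33, adjusted p = 4.66e-08) was the largest of the 4 hormones in these islets, at 4.13 in females and 5.48 in males (adjusted p = 1.81e-06 and 3.95e-06). The difference between the sexes, 1.35, was not called (SE 0.59, adjusted p = 0.755).

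On RFD, Stc2 was 0.0384, 0.312, 0.220 and 0.381 CPM in Clec16a controls and 6.63, 8.13, 6.49 and 5.77 CPM in KO libraries. The groups did not overlap, with a log2 fold change of 4.71 (SE 0.81, adjusted p = 0.00358). On HFD the controls ran from 0.262 through 0.379 to 0.764 CPM and the KO libraries held 17.3, 24.8, 13.99, 0.210 and 8.87 CPM. Replicate 4 was under the lowest control, and the other 4 were all above the RFD KO libraries. The log2 fold change was 4.89 (SE 0.65, adjusted p = 2.88e-04), and 5.22 without replicate 4 (SE 0.32, adjusted p = 1.77e-09).

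In livers Stc2 followed a different course from the other hormones. Control livers ran from 0.0862 through 0.232 to 0.390 CPM, Mfn DKO livers held 0.424, 0.986, 0.746 and 0.490 CPM, and Tfam KO livers 0.803, 18.8 and 0.537 CPM. Both KO groups lay just above the controls, and 1 library, Tfam KO replicate 2, lay far above everything else. In Mfn DKO the log2 fold change was 1.49 and not called (SE 0.86, adjusted p = 0.280); in the same fit without Tfam KO replicate 2, which adds to the shared estimate of spread, it was called (adjusted p = 0.0313). In Tfam KO it was 4.84 (SE 0.90, adjusted p = 0.00292), and without replicate 2 it was 1.52 and not called (SE 0.52, adjusted p = 0.0690), so the size and the call rest on that library, whose hepatocyte marker sum was the lowest of the livers. The part of that library's makeup in the value was not tested. By TPM, control groups and Mfn DKO livers lay at or under 0.338 and the KO islet groups between 2.79 and 6.07, with overlap between neighbouring groups.

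**Figure D3:**
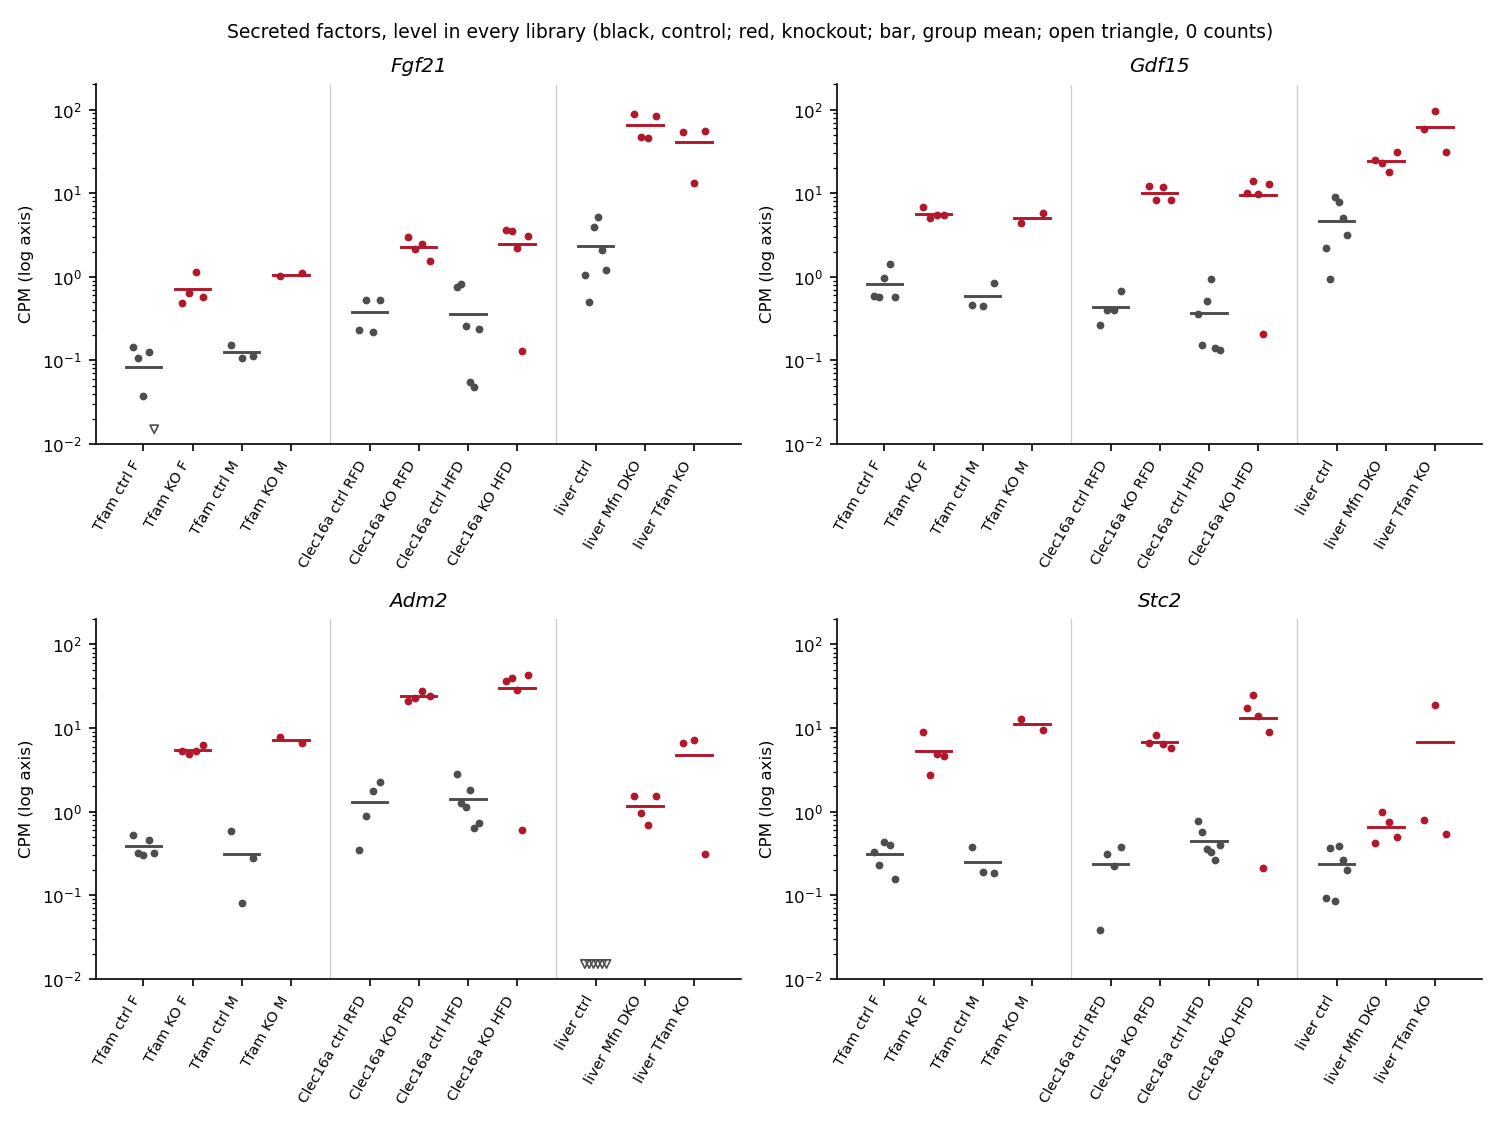
CPM of Fgf21, Gdf15, Adm2 and Stc2 in each of the 46 libraries by group (points on a log axis; bars, group means; open triangles, libraries with 0 counts). KO libraries lie above their controls in every experiment except HFD replicate 4 labelled Clec16a KO, which lies at 0.131, 0.210, 0.602 and 0.210 CPM for the 4 genes.

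Inhbe encodes the βE subunit of activin, a product of hepatocytes. It was all but absent from islets: 3 of the 33 islet libraries held any count, at 2 counts (0.0328 CPM) in Tfam KO female replicate 3, 1 count (0.0132 CPM) in Tfam KO male replicate 2 and 2 counts (0.1004 CPM) in RFD replicate 2 labelled Clec16a KO. These lie at or under the floor, so the gene was not tested in islets. Control livers ran from 41.0 through 64.8 to 105 CPM, Mfn DKO livers held 63.1, 40.4, 62.0 and 86.2 CPM and Tfam KO livers 37.2, 13.7 and 49.998 CPM. All 3 groups overlapped, with Tfam KO replicate 2 the lowest. The log2 fold change was -0.14 in Mfn DKO (SE 0.33, adjusted p = 0.818) and -1.04 in Tfam KO (SE 0.38, adjusted p = 0.0549; -0.67 without replicate 2, adjusted p = 0.195), and neither was called. Without Tfam KO replicate 3 the latter was -1.46 and called (adjusted p = 0.0150).

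**Figure D4:**
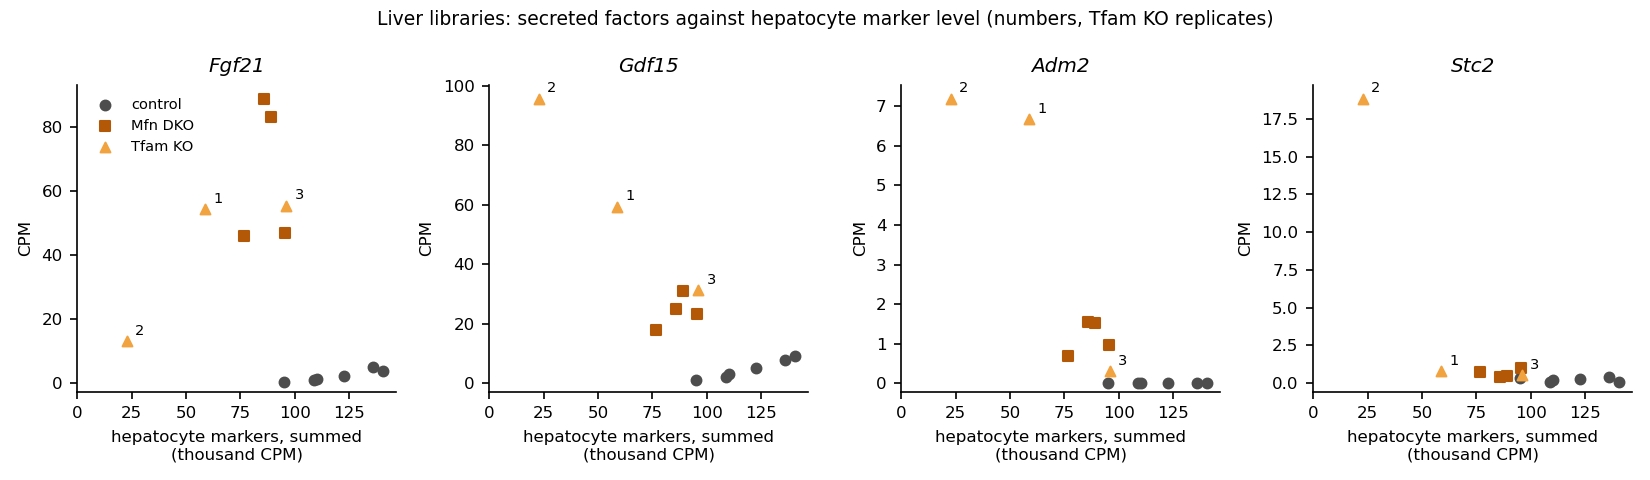
CPM of Fgf21, Gdf15, Adm2 and Stc2 in each of the 13 livers (vertical axes) against the summed CPM of 8 hepatocyte markers in the same library (horizontal axes); numbers mark the Tfam KO replicates. Tfam KO replicate 2, at a marker sum of 22737 CPM, has the highest Stc2 (18.8 CPM) and Gdf15 (95.8 CPM) of all livers and the lowest Fgf21 of the KO livers (13.1 CPM).

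Klb is the β-Klotho co-receptor that makes cells sensitive to FGF21. Tfam control females held 16.5, 13.2, 20.2, 13.2 and 15.04 CPM and control males 6.22, 10.5 and 11.7 CPM, against 16.2, 15.9, 16.5 and 14.5 CPM in KO females and 10.4 and 10.3 CPM in KO males. Within each sex the KO values lay inside the control range, and the log2 fold change was 0.05 (SE 0.13, adjusted p = 0.818). In Clec16a islets on RFD, Klb was 10.98, 8.34, 9.53 and 10.21 CPM in controls and 12.3, 10.4, 9.32 and 11.98 CPM in KO, a log2 fold change of 0.17 (SE 0.14, adjusted p = 0.515). On HFD the controls ran from 7.87 through 8.36 to 9.38 CPM and the KO libraries held 7.60, 10.8, 6.77, 9.56 and 10.02 CPM, a log2 fold change of 0.08 (SE 0.12, adjusted p = 0.777). The groups overlapped on both diets.

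Over both genotypes of the Tfam islets, Klb differed by sex, a comparison added after its values were seen. It ran from 13.2 through 15.9 to 20.2 CPM in the 9 female libraries and held 6.22, 10.5, 11.7, 10.4 and 10.3 CPM in the 5 male libraries, without overlap. Females exceeded males by 0.67 on the log2 scale (SE 0.13, adjusted p = 0.0196 with edgeR), where 1.94% of all genes were called, and none of the other 5 genes tested was called.

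Control livers held Klb from 21.3 through 32.1 to 34.5 CPM, Mfn DKO livers 30.7, 38.0, 34.6 and 27.1 CPM and Tfam KO livers 43.6, 39.2 and 36.9 CPM. Mfn DKO overlapped the controls, with a log2 fold change of 0.11 (adjusted p = 0.635). All 3 Tfam KO livers lay above all controls, yet the change of 0.40 was not called (SE 0.15, adjusted p = 0.0584). By TPM, Klb was lowest in the Clec16a controls on HFD (3.82) and highest in Tfam KO livers (29.2), every liver group lying above every islet group in the mean.

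Fgfr1 is the tyrosine kinase receptor that β-Klotho joins. Tfam control females held 24.5, 23.8, 24.8, 27.4 and 22.8 CPM and control males 20.8, 22.2 and 23.5 CPM. KO females held 29.6, 30.7, 32.1 and 29.7 CPM and KO males 33.9 and 37.0 CPM. The change was small beside that of the hormones but exceeded the spread of the libraries, with no overlap: the log2 fold change was 0.44 (SE 0.07, adjusted p = 2.71e-04), 0.31 in females and 0.68 in males (adjusted p = 0.00904 and 2.86e-04). On RFD it was 35.4, 30.6, 34.2 and 36.4 CPM in Clec16a controls and 52.4, 46.4, 44.99 and 42.6 CPM in KO, again without overlap (0.45, SE 0.11, adjusted p = 0.0227). That call was lost without control replicate 2 or 3 or KO replicate 1 (adjusted p = 0.0595, 0.0588 and 0.0576). On HFD the controls ran from 24.6 through 28.8 to 29.5 CPM and the KO libraries held 38.1, 38.3, 42.5, 27.0 and 38.5 CPM. Replicate 4 was the only KO library among the controls, and the log2 fold change was 0.42 with it (SE 0.10, adjusted p = 0.0116) and 0.51 without it (SE 0.08, adjusted p = 1.23e-04). Without KO replicate 3 it was 0.35 and not called (adjusted p = 0.0527).

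Markers of other cells moved with these groups. The endothelial marker sum ran from 150 to 177 CPM in RFD controls and from 231 to 272 CPM in the KO libraries on RFD, and from 153 to 198 and from 177 to 282 CPM on HFD, where replicate 4 had the 177 CPM. The duct marker sum was 17.5 to 28.7 and 41.5 to 248 CPM on RFD. Of its 4 markers, Spp1 alone reached 246 CPM in the Clec16a islets. Krt19, Sox9 and Cftr reached at most 8.54, 2.40 and 0.588 CPM there. In Tfam islets the beta cell marker sum was 188069 to 294668 CPM in control females and 105367 to 141082 CPM in KO females. The part of these shifts in the values of Fgfr1, the hormones and the gene lists below was not tested.

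In livers Fgfr1 was not called in either KO. Control livers ran from 5.39 through 8.82 to 16.2 CPM, Mfn DKO livers held 7.79, 10.4, 6.82 and 7.79 CPM and Tfam KO livers 15.4, 13.1 and 7.36 CPM. All groups overlapped, with log2 fold changes of -0.27 (adjusted p = 0.598) and 0.27 (adjusted p = 0.581). By TPM, Fgfr1 was lowest in control livers (2.13) and highest in the Clec16a KO group on RFD (10.1), the reverse of the order of tissues for Klb.

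**Figure D5:**
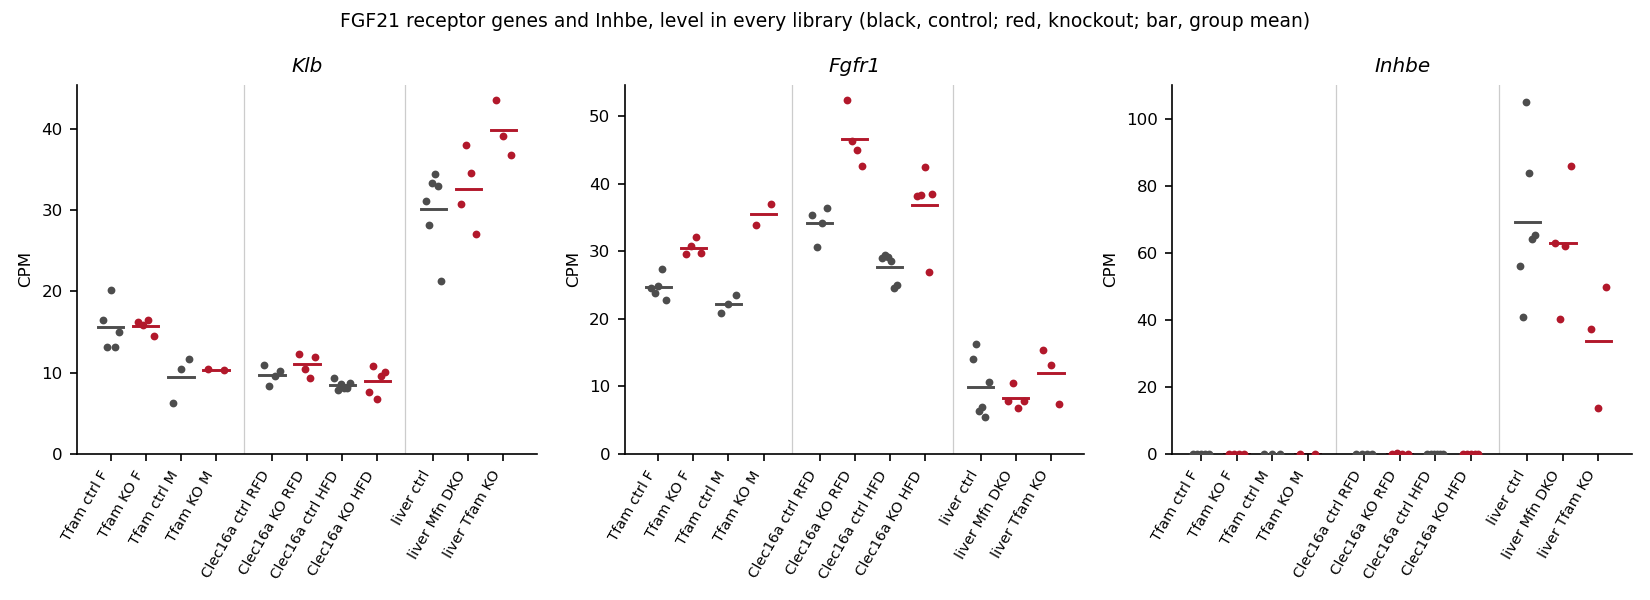
CPM of Klb, Fgfr1 and Inhbe in each of the 46 libraries by group (points; bars, group means). Fgfr1 lies higher in KO than in control islets except in HFD replicate 4 labelled Clec16a KO (27.0 CPM), Klb shows overlapping groups in islets, and Inhbe is read almost only in livers.

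Sex, diet and the kind of damage were compared next. None of the genotype effects on the 6 genes tested differed between females and males past the threshold, where 0 of 19752 genes were called (1230 had an unadjusted p under 0.05). HFD against RFD called none of the 6 genes in control islets, with 0.0406% of all genes called, and none in the Clec16a KO group, with 0.0116%. Stc2, for which HFD controls and KO libraries both had the higher mean, gave 0.76 (SE 0.84, adjusted p = 0.999) and 0.94 (SE 0.60, adjusted p = 1), and Fgfr1 gave -0.31 (SE 0.10, adjusted p = 0.591) and -0.34 (SE 0.11, adjusted p = 0.578). These values for the KO group include HFD replicate 4. The KO mean of Stc2 on HFD was 13.0 CPM with that library and 16.2 CPM without it, against 6.76 CPM on RFD. The interaction of genotype with diet called 0 of 17254 genes with edgeR, 406 at an unadjusted p under 0.05. Tfam KO against Mfn DKO livers called none of the 7 genes, with 0.294% of all genes called. The difference of the Tfam from the Clec16a effect in islets called none of the 6, with 8.97% called. It set Tfam islets of both sexes against Clec16a islets that held no Ddx3y counts. Of the Tfam effects in islets and liver, that on Adm2 differed with all libraries in the fit and that on Stc2 only without Tfam KO liver replicate 2, when Adm2 was no longer called; those on Fgf21 and Gdf15 differed by -1.01 (adjusted p = 0.475) and -0.75 (adjusted p = 0.521).

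The sequencing lane, read from the deposited file names for the Clec16a islets, and the Xist level of the livers, which have no sex label, were taken as batches. Within lanes 7 and 8 on RFD the difference of the mean log2(CPM + 0.1), KO minus control, was 2.35 and 2.33 for Fgf21, 4.65 and 3.75 for Gdf15, 5.18 and 3.46 for Adm2, and 4.74 and 4.39 for Stc2. On HFD it was 2.38 and 2.65, 4.81 and 3.18, 4.53 and 3.15, and 4.29 and 3.48, lane 8 including replicate 4. Lane 8 on RFD held 1 KO library and 2 controls, and the other strata 2 or 3 of each. With lane in the model Fgf21 on RFD was 2.30 and no longer called (adjusted p = 0.0624). Among livers with high and with low Xist, Fgf21 differed by 4.11 and 6.05 in Mfn DKO and by 2.91 and 5.82 in Tfam KO, where 1 KO liver had low Xist. The differences had the same sign for each hormone in every lane and for Fgf21 at both levels of Xist. Some of them rest on 1 KO library. In Mfn DKO livers with high and with low Xist, 3 genes changed sign. They were Fgfr1 (0.53 and -0.87), Inhbe (-0.49 and 0.23) and Klb (-0.066 and 0.30).

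Genes around these hormones were then counted in lists drawn up from general knowledge, with earlier results of these data known. Of 23 ATF4 targets, enzymes and transporters of amino acid supply among them, 20 rose in Tfam KO islets. In the Clec16a KO group 16 rose on RFD and 14 on HFD (19 without replicate 4). In livers 12 rose in Mfn DKO and 19 in Tfam KO (15 without replicate 2). With all libraries none fell. In Mfn DKO livers without Tfam KO replicate 2, 15 rose and 1 fell (Shmt2, -0.44, adjusted p = 0.0351), against 19.51% of all genes called. Of all genes tested, 20.9%, 7.52%, 9.57%, 9.87% and 29.3% were called in either direction in these comparisons. Without HFD replicate 4 and Tfam KO liver replicate 2, 19.98% and 14.46% were called on HFD and in Tfam KO livers. The median log2 fold changes of the ATF4 targets were 0.89, 0.75, 0.73, 1.36 and 2.21. The median over all genes tested was -0.0092, -0.0016, -0.0019, 0.018 and 0.031. Trib3, a pseudokinase that restrains this response, rose by 5.25 in Tfam KO islets (adjusted p = 3.66e-09), 4.22 in Mfn DKO livers and 5.43 in Tfam KO livers. Phgdh and Psat1, the first enzymes of serine synthesis, rose by 2.62 and 2.39 on RFD and by 7.19 each in Tfam KO livers (6.18 and 5.96 without replicate 2, adjusted p = 6.82e-04 and 9.41e-05).

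Of 10 stress transcription factors, 7 rose and 1 fell in Tfam KO islets, 5 rose on RFD, and 6 rose and 1 fell on HFD. In livers 6 rose in Mfn DKO and 7 in Tfam KO. The medians were 1.05, 0.70, 0.72, 0.63 and 0.82. Of all genes tested, 20.9%, 7.52%, 9.57%, 9.87% and 29.3% were called in either direction in these comparisons. Nupr1, a small stress-induced chromatin protein, rose by 4.89 in Tfam KO islets, 5.18 in Mfn DKO livers and 7.12 in Tfam KO livers, and Ddit3, which encodes CHOP, by 2.80 in Tfam KO islets (adjusted p = 1.21e-09). Cebpb, a partner of ATF4 at the composite element, rose by 1.64 in Tfam KO islets and 1.58 on RFD. In livers it was not called, at -0.26 in Mfn DKO (adjusted p = 0.490) and -0.32 in Tfam KO (adjusted p = 0.367). Without replicate 2 the latter was -0.060 (adjusted p = 0.900).

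A list of 12 genes induced by ERK signalling, feedback inhibitors and transcription factors, was counted as well. Which receptor acts on them was not tested. In the Clec16a KO group 7 rose and none fell on each diet, against 3.99% and 5.62% of all genes called higher, with medians of 0.77 and 0.71; without HFD replicate 4 the count on HFD was 10. In Tfam KO islets none rose and 1 fell, against 20.9% called in either direction, with a median of -0.01. The endothelial and duct marker sums were also higher in the Clec16a KO libraries on RFD, as given above. On HFD the endothelial ranges overlapped. The transcription factor Etv5 rose by 2.63 on RFD (adjusted p = 0.00263) and 2.20 on HFD (adjusted p = 9.20e-04) and fell by 0.47 in Tfam KO islets (adjusted p = 0.0106). Dusp6, an ERK phosphatase, rose by 1.37 and 1.32 (adjusted p = 0.00530 and 0.00126), and the ERK inhibitor Spry4 by 1.56 and 1.11 (adjusted p = 0.00199 and 0.00230). Tested directly, the Tfam effect minus the Clec16a effect was called lower for 5 of the 12 (6 without HFD replicate 4), where 8.97% of all genes were called in either direction, among them Etv5 (-2.88, adjusted p = 8.39e-07), Dusp6 (-1.57, adjusted p = 1.80e-04) and Spry4 (-1.61, adjusted p = 6.35e-04). In Mfn DKO livers 0 rose and 1 fell, against 9.87% of all genes called in either direction. In Tfam KO livers 2 rose and 1 fell, against 29.3%. With all libraries, neither share was above the background. Without Tfam KO replicate 2, 2 rose and none fell in Tfam KO livers, against 14.46% of all genes. The same fit called Dusp5 (0.95, adjusted p = 0.0390) and Egr1 (2.62, adjusted p = 0.0337) higher in Mfn DKO livers. It called Spry4 lower there (-1.47, adjusted p = 0.0177), against 19.51% of all genes. The other endocrine FGF ligands and receptors gave no call in islets, except Kl on HFD without replicate 4 (0.41, adjusted p = 0.0439); in livers the decoy receptor Fgfrl1 fell by 0.35 in Mfn DKO (adjusted p = 0.0393) and Fgfr4, the main FGF receptor of hepatocytes, fell by 0.86 in Tfam KO (adjusted p = 0.0236; -0.59 and not called without replicate 2, adjusted p = 0.101).

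Among the partners of the other hormones, genes were called in islets in each comparison. Of all genes tested, 20.9% were called in either direction in Tfam KO islets, 7.52% on RFD and 9.57% on HFD. Gfral did not pass the filter in any experiment; Ret, its signalling partner, fell by 0.77 on RFD (adjusted p = 0.00518) and 0.73 on HFD (adjusted p = 0.00145) in the Clec16a KO group. Of the adrenomedullin and calcitonin family, Adm, the peptide most like Adm2, rose by 2.55 in Tfam KO islets (adjusted p = 9.99e-04), 2.44 on RFD (adjusted p = 0.0499) and 3.47 on HFD (adjusted p = 0.00196). The receptor-modifying proteins differed in direction. Ramp1 fell by 0.87 in Tfam KO islets (adjusted p = 0.00803), and Ramp3 rose by 0.74 and 0.68 in the Clec16a KO group (adjusted p = 0.0255 and 0.0141). The endothelial marker sum was also higher in the KO libraries on RFD, and its ranges overlapped on HFD. In livers none of the 5 genes tested of this family was called, against 9.87% of all genes in Mfn DKO and 29.3% in Tfam KO.

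Of 5 stanniocalcin and pappalysin genes, 1 rose in Tfam KO islets (Igfbp5, 0.74), against 20.9% of all genes called in either direction. In the Clec16a KO group 3 rose on each diet, against 7.52% on RFD and 9.57% on HFD. These included the protease Pappa2, at 1.17 on RFD and 1.34 on HFD, and its substrate Igfbp4, at 0.90 and 0.84. In Mfn DKO livers none of the 4 tested was called, against 9.87%, and in Tfam KO livers 29.3% of all genes were called. In Tfam KO livers Pappa stood at 6.51 (adjusted p = 0.00513) and Stc1 at 2.13 (adjusted p = 0.0423), both called only with replicate 2, without which they were 1.56 and 0.32 (adjusted p = 0.357 and 0.801).

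Of the activin and inhibin genes, 1 rose and 3 fell of 15 tested in Tfam KO islets, against 20.9% of all genes called, and 1 rose on RFD and 2 rose and 1 fell on HFD of 14 tested, against 7.52% and 9.57%; without HFD replicate 4, 2 rose and 5 fell. In livers 2 rose and 1 fell of 15 in Mfn DKO, against 9.87%, and 5 rose and 4 fell in Tfam KO, against 29.3%; without replicate 2 the latter were 2 and 2, against 14.46%. The activin βB subunit Inhbb rose by 1.01 in Tfam KO islets, 1.67 on RFD and 1.42 on HFD. In Tfam KO livers it was 1.75 (adjusted p = 0.00984), and 0.90 and not called without replicate 2 (adjusted p = 0.121). Inhbc, the βC subunit that hepatocytes make beside Inhbe and which is named here after its value was seen, fell by 1.79 in Tfam KO livers (adjusted p = 0.0144), and by 1.33 without replicate 2 (adjusted p = 0.0246). Fst, an activin antagonist, rose by 2.06 in Mfn DKO livers and stood at 2.85 in Tfam KO livers, called only with replicate 2 (1.87 without it, adjusted p = 0.0544).

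Among 11 other secreted stress factors, Angptl6, an angiopoietin-like hormone, rose by 3.21 in Tfam KO islets (adjusted p = 1.18e-11), 1.97 on RFD (adjusted p = 0.0102) and 2.53 on HFD (adjusted p = 4.75e-04), while Igfbp1, an IGF-binding protein of the liver, rose by 3.19 in Mfn DKO (adjusted p = 0.00674) and 3.90 in Tfam KO livers (adjusted p = 0.00160; 2.36 without replicate 2, adjusted p = 0.00868). The secreted chaperone Manf fell by 0.66 in Tfam KO islets (adjusted p = 8.57e-04). A list of 12 genes held Ppara, the nuclear receptor of fasting that also drives hepatic Fgf21, and its targets. None rose in Mfn DKO livers and 1 fell (Fabp1, -1.63), against 9.87% of all genes called in either direction. In Tfam KO livers 2 rose and 3 fell (1 and 3 without replicate 2), the latter including Ppara itself (-1.09, adjusted p = 0.0426; -0.69 and not called without replicate 2, adjusted p = 0.118), against 29.3%. Pdk4 was at 5.27 (adjusted p = 0.00216), or 2.27 without replicate 2 (adjusted p = 0.0194), and Fabp1 at -2.15. The median of the list was -0.15 in Mfn DKO and -0.11 in Tfam KO livers (-0.50 without replicate 2).

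Finally, the genes with the most similar pattern over the 11 group means were listed for each gene, among 21794 genes, by the root mean square difference of centred log2 CPM, where 0 is an identical pattern. The nearest to Fgf21 were Extl1 (1.05), Serpina7 (1.11) and Il1rn (1.20), to Gdf15 Gm19619 (0.895), Atf3 (1.02) and Hrk (1.05), and to Adm2 Fut1 (1.10), Nupr1 (1.12) and 1700016K19Rik (1.23). Stc2 was nearest to Fut1 (0.891), Slc7a11 (0.913) and Fam129a (0.958). In Tfam KO livers the means of Stc2 and Slc7a11 rest on replicate 2, at 6.73 ± 10.5 and 45.8 ± 77.2 CPM (SD, n = 3). With that library left out of the mean, the nearest to Stc2 were Fut1 (0.656), Slc1a7 (0.723) and Slc7a11 (0.834). Inhbe, Klb and Fgfr1 had closer neighbours, led by Acnat2 (0.199), Ndufs4 (0.199) and Dnal4 (0.160). The hormones were thus farther from any single gene than the receptors were, but the distance was not scaled to a gene's own range over the groups. That range was 9.68, 7.89, 9.04 and 5.48 on the log2 scale for Fgf21, Gdf15, Adm2 and Stc2. It was 2.74 for Klb and 1.99 for Fgfr1, and 11.1 for Inhbe, which had close neighbours. The group means come from separate experiments. Fut1, which stood nearest to both Stc2 and Adm2, encodes a fucosyltransferase and lies 2115 bases from Fgf21, at chr7:45617606-45621059 in RefSeq. It rose by 4.35 in Tfam KO islets (SE 0.24, adjusted p = 2.64e-09), 3.65 on RFD (adjusted p = 0.00492) and 3.86 on HFD (adjusted p = 5.55e-04), whereas in Mfn DKO and Tfam KO livers it was at 2.06 (adjusted p = 0.0639; 0.0413 without Tfam KO replicate 2) and 1.62 (adjusted p = 0.0964). The Tfam effect on Fut1 was higher in islets than in liver by 2.93 (adjusted p = 0.00786), where that on Fgf21 gave -1.01.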

How the data were processed

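RNA was sequenced as paired reads from 33 islet and 13 liver libraries. The submitters' processing notes name STAR 2.6.1b, RSEM 1.3.1, featureCounts, FastQC, MultiQC and DESeq2 and the build GRCm38, with no order; which program made the counts and its strand setting are not given in the sources used here. Each deposited file held, per the file headers, whole-number raw counts, TPM and CPM for 55487 genes, and 55141 identifiers were found in GENCODE M21. The authors' TPM were used only to compare levels between genes, and the authors' CPM only to check the totals.

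Each experiment was fitted to the deposited counts with edgeR 4.0.16 in R 4.3.3 (TMM, filterByExpr on the group, quasi-likelihood F-test, Benjamini-Hochberg adjustment over all genes tested), with sex as an additive term in the Tfam islets over both sexes. Interactions across experiments came from 1 fit over all groups. Genes were called at an adjusted p of 0.05. The SE is the size of the log2 fold change over the square root of F. Library levels are CPM on TMM-scaled totals, and 0 counts allow 3. Reads carry no molecular identifiers, so floors cover counting error only. Simulated counts with 200 changed genes served to test the scripts. No pair of libraries within a group was identical.

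The genes named are the 7 members, the targeted genes, up to 3 genes per list and comparison (those of smallest adjusted p), and the 3 most similar genes per member. The members and lists were chosen with earlier results of these data known. Replicate numbers were not taken to pair the libraries. The median correlation of deviations between same-numbered libraries was 0.0653, -0.0163 and 0.0873 in the Tfam islets, Clec16a islets and livers. It was over 0.1 in 2 of 6, 3 of 25 and 5 of 10 pairs. These values cannot exclude pairing. Alternatives were the size factors and the Wald test of DESeq2 1.42.0, no filter, at least 10 counts in every sample, leaving out each library, the replicate block, covariates for acinar markers, lane or Xist, and fits of the compared groups alone. The counts, genes and similar patterns without the 2 libraries that stood apart and the test of sex in islets were added after seeing the data.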

Additional observations from a re-analysis of the deposited data

Results flagged for a closer look

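Of 51 pairs of gene and group tested for a library far from the others of its group, 3 had one; chance gives about 1 in 20. Inhbe in Tfam KO female islets had its highest value, 0.0328 CPM, in replicate 3, where the other 3 libraries had 0 counts. Inhbe in RFD islets labelled Clec16a KO had its highest value, 0.1004 CPM, in replicate 2, again beside libraries at 0. Both stand for 2 counts and lie under the floor of 3. A single library with counts beside libraries at 0 is flagged whatever its value, so the rate of 1 in 20 does not apply to them. Fgfr1 in HFD islets labelled Clec16a KO had its lowest value, 27.0 CPM, in replicate 4, within the range of the HFD controls (24.6 to 29.5 CPM); the 4 hormones were at the level of the controls in the same library.

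The effect of Tfam loss on Adm2 differed between islets and liver by -7.07 on the log2 scale (adjusted p = 0.0103 with edgeR). Adm2 was higher in 6 of 6 KO islet libraries and in 3 of 3 KO livers, and the size of the difference depends on control livers at 0 counts. Without Tfam KO liver replicate 2 it was -6.62 and not called (adjusted p = 0.0532), while the difference for Stc2 became 3.30 and was called (adjusted p = 0.0158).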

How the results depend on the processing

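Every hormone kept its direction in each comparison of KO with control under all alternatives run. Requiring at least 10 counts in every sample removed most hormones from the test and lowered the members called to 3 in Tfam islets, in females and in males, to 1 on RFD and on HFD and to 0 for the Tfam effect in islets minus liver, because fewer genes were tested. With the replicate block, a number not taken to pair these libraries, members called in Mfn DKO livers fell from 3 to 1 (Gdf15 adjusted p = 0.122, Adm2 0.0708). Under it Stc2 in Tfam KO livers had an adjusted p of 0.0593, Fgf21 on RFD 0.0689 and Fgfr1 in females 0.0567. Leaving out 1 library gave 3 to 5 members called on RFD (3 without control RFD replicate 2 or 3 or KO RFD replicate 1, where Fgf21 and Fgfr1 were lost), 4 to 5 on HFD (Fgfr1 without KO HFD replicate 3, 0.0527), 4 to 5 in males (Fgf21 without KO male replicate 2, 0.0570), 3 to 4 in Mfn DKO livers, 3 to 5 in Tfam KO livers, 0 to 3 for Tfam KO against Mfn DKO livers and 0 to 1 for the Tfam minus the Clec16a effect. The 3 came without Tfam KO liver replicate 3 (Adm2 2.55, adjusted p = 0.00378; Stc2 3.88, 0.00676; Inhbe -1.31, 0.0462). Without Tfam KO liver replicate 2, the difference of the Tfam effect on Stc2 between islets and liver became 3.30 (0.0158). Stc2 in Mfn DKO livers was called in a fit of those 2 groups alone (0.0280). Inhbe in Tfam KO livers was called with at least 10 counts (0.0468), with the Wald test (0.0177) and without control replicate 2 (0.0410) or Tfam KO replicate 3 (0.0150).

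Values that changed sign were all uncalled under both settings, except Stc2 for islets minus liver, above. With the acinar covariate they were Klb in females (-0.042), Adm2 for diet in controls (-0.22), and Fgf21 (-0.081) and Adm2 (-0.0080) for diet in KO. DESeq2's size factors and Wald test turned Stc2 for islets minus liver (0.026 and 0.034), lane Adm2 for diet in controls (-0.011), and the block Fgf21 for genotype by sex (0.32) and for diet in KO (-0.059) and Gdf15 (-0.0073) and Stc2 (-0.048) for genotype by diet. The cause was not tested. Leaving out 1 library, Klb ran from -0.021 to 0.13 in Tfam islets, from -0.043 to 0.12 in females and from -0.10 to 0.31 in males, and for genotype by sex Fgf21 ran from -0.38 to 0.32 and Klb from -0.11 to 0.30. For diet in controls Adm2 ran from -0.26 to 0.47, Fgf21 from -0.70 to 0.090 and Gdf15 from -0.97 to 0.0056, and in KO Fgf21 from -0.057 to 0.44 and Gdf15 from -0.31 to 0.21. For genotype by diet Adm2 ran from -0.16 to 0.61, Fgfr1 from -0.081 to 0.067, Gdf15 from -0.12 to 0.85 and Stc2 from -0.19 to 0.51. Inhbe in Mfn DKO ran from -0.34 to 0.023. For islets minus liver Fgfr1 ran from -0.013 to 0.45 and Stc2 from -0.59 to 3.30, and for Tfam minus Clec16a Adm2 from -0.38 to 0.25, Fgfr1 from -0.0037 to 0.11, Klb from -0.18 to 0.017 and Stc2 from -0.23 to 0.19.

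The hormones rest on few counts in controls, so their fold changes are less exact than their direction. The Clec16a genotype rests on labels, 2 libraries stood apart, and lists and genes were chosen with results known.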

Other observations

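The livers carry no sex label, and the 6 controls fell into 3 libraries with Xist above 50 CPM and 3 below. Ddx3y split them alike, at no more than 0.605 CPM in the first 3 and at 94.5, 89.6 and 90.9 CPM in the second 3. The labelled Tfam control males held 95.9, 110 and 94.8 CPM of Ddx3y and the labelled females 0. Fgf21 ran from 2.12 to 5.14 CPM in the first and from 0.502 to 1.19 CPM in the second, Gdf15 from 5.07 to 8.98 and from 0.951 to 3.16 CPM, and Klb from 33.0 to 34.5 and from 21.3 to 31.2 CPM. Fgfr1 went the other way, from 5.39 to 6.99 and from 10.7 to 16.2 CPM. For each of these 4 genes the 2-sided exact permutation p was 0.1, the smallest that 3 against 3 libraries can give. Inhbe, at 64.1 to 105 and 41.0 to 65.5 CPM, gave an exact permutation p of 0.2.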
